A study of Mus musculus with 4 samples.

Results

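This is an account of 9 genes known as markers of resting cardiac fibroblasts, Pdgfra, Tcf21, Gsn, Dpep1, Pi16, Dpt, Mgp, Scara5 and Smoc2. The genes were chosen by name, with earlier results of these data known. Each was found by its symbol among the 32285 genes counted, so they are 9 of 32285. The data are spatial transcriptomics (Visium) of 4 mouse heart sections, 10 µm thick and flash frozen, in which each barcoded spot on the slide collects mRNA from the small group of cells above it. Each section came from 1 adult ICR mouse, 12 weeks old at surgery by the design text, harvested on day 1, 4, 7 or 14 after a permanent tie on the LAD (left anterior descending) artery, which causes a myocardial infarction (MI). There was no sham-operated or uninjured heart among these sections, the labels name no transgene or drug treatment, and all 4 mice carried the ligation. With 1 mouse a day, day and mouse cannot be told apart, and no test between days was made.

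Resting fibroblasts keep the collagen network between heart muscle cells in repair. After an infarct they divide, switch on genes of contraction and matrix assembly such as Postn and Cthrc1, and lay down the collagen scar. Genes such as Tcf21 are known to be turned down in fibroblasts that make this switch, whereas others, such as Pi16 and Dpt, are known from fibroblasts of many organs, including those around vessels.

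Within each section, spots were ranked by the share of their unique molecular identifiers (UMIs, tags that let copies of 1 mRNA be counted once) that came from Col1a1, Col1a2 and Col3a1, the main scar collagens, and were divided into quartiles. Quartile 1 is the lowest and quartile 4 the highest in collagen. The collagens took 0.257%, 3.49%, 3.88% and 0.876% of the UMIs of quartile 4 at days 1, 4, 7 and 14, against 0.0119% to 0.0549% in quartile 1. Quartile 4 of day 1 therefore held little collagen, and its highest spot reached 2.44%. Quartiles were made from expression, so genes that vary with collagen differ between them by construction, and a spot holds several cells, so that fewer fibroblasts and less RNA per fibroblast cannot be told apart. Levels are given as UMIs per 1000000 UMIs of the quartile (counts per 1000000, CPM), with exact Poisson 95% intervals that cover counting error only. Comparisons between quartiles treated the 4 sections as the replicates.

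After spots with over 1% hemoglobin UMIs were left out, 7503 of 9102 spots remained, 1679 to 2086 a section, with 9292678 to 15713779 UMIs a section. All 9 genes had at least 100 UMIs over these spots, and 7 had at least 1000, the exceptions being Tcf21 and Scara5. Quartile 4 was shallower than quartile 1 in every section, with medians of 2171 to 6072 against 5342.5 to 9896 UMIs a spot. Mitochondrial mRNAs took 7.04% to 23.4% of UMIs in quartile 4 and 30.2% to 37.7% in quartile 1. The 9 cardiomyocyte markers checked summed to 71830.1 to 81394 CPM in quartile 1, so the labelled heart tissue was borne out, and to 13378 in quartile 4 of day 4. The day 7 section also held skeletal muscle mRNA, 5766 CPM over 5 marker genes in its quartile 3 and 1363 in its quartile 4, against 5.43 or less in every quartile of the other sections. The quartile 4 to quartile 1 calls were also made without spots holding 3 or more UMIs of mesothelium, fat, skeletal muscle or valve markers, and the 4 rises and the 1 fall described below kept their side of the threshold there.

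The label of the 9 genes was checked against lists of marker genes over the 16 libraries, 4 quartiles of 4 sections. These lists, too, were chosen with earlier results of these data known. On the log2 level, Dpt, Mgp, Tcf21, Pi16 and Pdgfra went with the summed general fibroblast list (Dcn, Lum, Vim and 13 others), with Pearson correlations of 0.97, 0.97, 0.90, 0.88 and 0.85. The macrophage list gave the same genes nearly the same values, 0.95, 0.97, 0.88, 0.84 and 0.85, so this closeness was not particular to fibroblasts. The activated fibroblast list (Postn, Cthrc1 and others) gave them 0.95, 0.98, 0.88, 0.87 and 0.87. A wider list of resting fibroblast genes gave 0.98, 0.98, 0.88, 0.94 and 0.84. These correlations therefore did not set resting apart from activated fibroblasts. Smoc2 and Dpep1 went less closely with the general fibroblast list, at 0.57 and 0.54. Both were nearer to the endothelial list, at 0.71 and 0.60, and Smoc2 reached 0.71 with the pericyte list too. For Smoc2 this order did not hold within sections. After each section's mean was taken out, it was at 0.58 with general fibroblasts, 0.51 with endothelium and 0.34 with pericytes. Dpep1 was then at 0.45, 0.57 and 0.56. The wider resting list gave Smoc2 and Dpep1 0.66 and 0.58, and 0.69 and 0.57 after each section's mean was taken out. Within sections this was the highest value among the lists for Smoc2, and was level with endothelium for Dpep1. Scara5 stood at -0.06 with the general fibroblast list and at 0.50 with the pericyte list, and after each section's mean was taken out it reached 0.74 with pericytes and 0.60 with cardiomyocytes. Gsn stood at -0.46 with the general fibroblast list and at 0.80 with the cardiomyocyte list. These are descriptions over libraries that share sections, depth and the collagen ranking. In these spots, then, the levels of Gsn and Scara5 did not follow those of the general fibroblast genes. Gsn encodes gelsolin, an actin-severing protein that muscle cells also make. Its level is therefore not read here as a measure of fibroblasts alone, and which cells its mRNA came from was not tested.

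**Figure D1:**
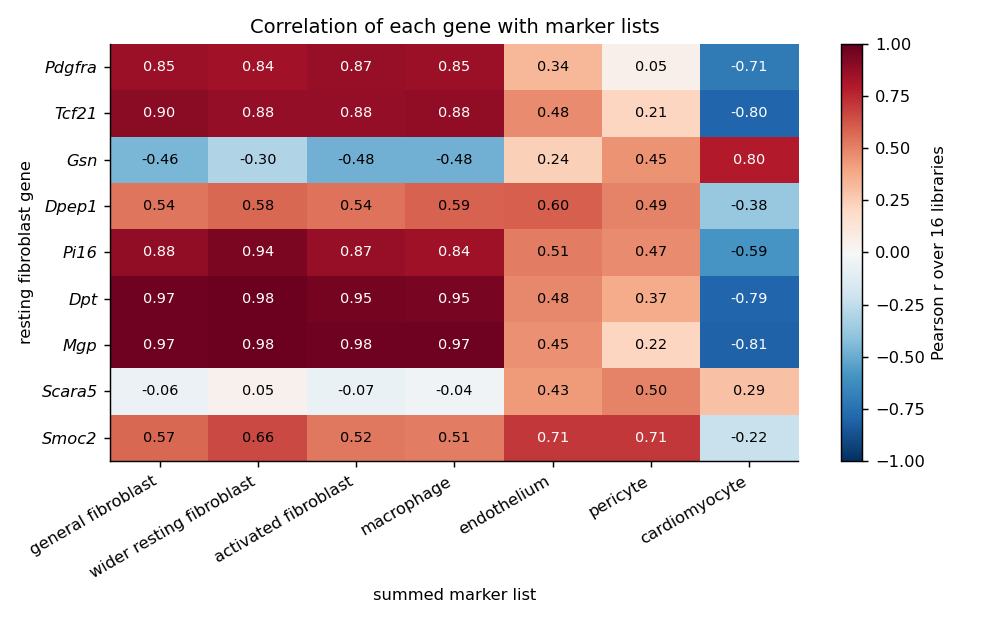
Pearson correlation, over 16 libraries (4 collagen quartiles in each of 4 sections), between the log2 level of each of the 9 genes (rows) and the log2 of the summed level of each marker list (columns). Dpt and Mgp reach 0.97 with the general fibroblast list, while Gsn reaches -0.46 there and 0.80 with the cardiomyocyte list.

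Tcf21 encodes a basic helix-loop-helix transcription factor that binds the E-box CANNTG together with partner proteins such as Tcf3 and Tcf12, and its E-box was looked for in the promoters of the genes. RefSeq windows of GRCm38.p6, 250 bases before to 50 after a gene's start, were at hand for 6 of the 9 genes (8 windows). Windows are shown for Tcf21 itself and for Pdgfra, Pi16 and Dpt, which were higher in collagen-rich spots, 5′ to 3′ on the strand of the gene and with E-boxes in capitals. The start used for Pi16 lies inside the gene as GENCODE draws it.
Tcf21, chr10:22820094-22820393, minus strand: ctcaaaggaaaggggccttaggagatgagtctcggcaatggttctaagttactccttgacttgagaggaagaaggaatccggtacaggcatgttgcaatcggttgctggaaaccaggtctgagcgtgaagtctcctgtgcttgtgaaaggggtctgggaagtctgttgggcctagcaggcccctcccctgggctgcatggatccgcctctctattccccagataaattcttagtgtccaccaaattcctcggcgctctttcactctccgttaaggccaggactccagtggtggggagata
Pdgfra, chr5:75152001-75152300, plus strand: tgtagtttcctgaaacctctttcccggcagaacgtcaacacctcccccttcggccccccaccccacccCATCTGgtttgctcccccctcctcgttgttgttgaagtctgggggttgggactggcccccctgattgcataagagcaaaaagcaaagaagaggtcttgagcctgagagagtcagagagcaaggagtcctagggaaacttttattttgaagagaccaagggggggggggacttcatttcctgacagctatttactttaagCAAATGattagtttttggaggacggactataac
Pi16, chr17:29318632-29318931, plus strand: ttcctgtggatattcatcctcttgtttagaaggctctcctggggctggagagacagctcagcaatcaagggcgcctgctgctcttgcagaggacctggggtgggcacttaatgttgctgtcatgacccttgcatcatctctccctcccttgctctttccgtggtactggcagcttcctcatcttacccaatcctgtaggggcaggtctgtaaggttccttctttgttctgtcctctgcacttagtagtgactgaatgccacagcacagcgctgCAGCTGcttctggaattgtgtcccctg
Dpt, chr1:164796413-164796712, plus strand: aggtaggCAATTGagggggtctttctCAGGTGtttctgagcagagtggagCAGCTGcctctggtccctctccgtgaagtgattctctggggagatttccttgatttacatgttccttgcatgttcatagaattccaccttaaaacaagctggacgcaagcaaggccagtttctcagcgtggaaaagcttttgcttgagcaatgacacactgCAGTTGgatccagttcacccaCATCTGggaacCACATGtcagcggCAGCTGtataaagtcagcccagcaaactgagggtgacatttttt
The Dpt window held 7 E-boxes, a count reached by 0.177% of the 32851 windows in the table, while the Pdgfra window held 2, the Pi16 window 1 and the Tcf21 window 0. Dpep1 had 2, and the windows at 3 starts of Gsn had 1, 3 and 2. An E-box was in 72.3% of all windows, with a median of 1, so its presence sets no window apart, and a match is a run of letters and not a shown binding site. The AP-1 motif TGANTCA, read like CANNTG on both strands, was in none of the 8 windows and in 7.81% of all of them.

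Between quartile 4 and quartile 1, 4 of the 9 genes were higher, Pdgfra, Pi16, Dpt and Mgp, and 1 was lower, Scara5, at an adjusted p under 0.05 in the fit across 11618 genes. Of all genes tested, 29.3% were higher and 25.8% lower at the same threshold. The 9 genes had a median log2 fold change of 0.45, and all tested genes 0.08. These fold changes are on the scale of trimmed mean of M-values (TMM), which sets the bulk of genes near 0. On the scale of total UMIs the median of all genes was 0.86, and 7796 genes were higher and 1057 lower, where TMM gave 3399 and 3001. On that scale 7 of the 9 genes were higher and 0 lower, with Gsn and Scara5 past the threshold in neither direction.

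**Figure D2:**
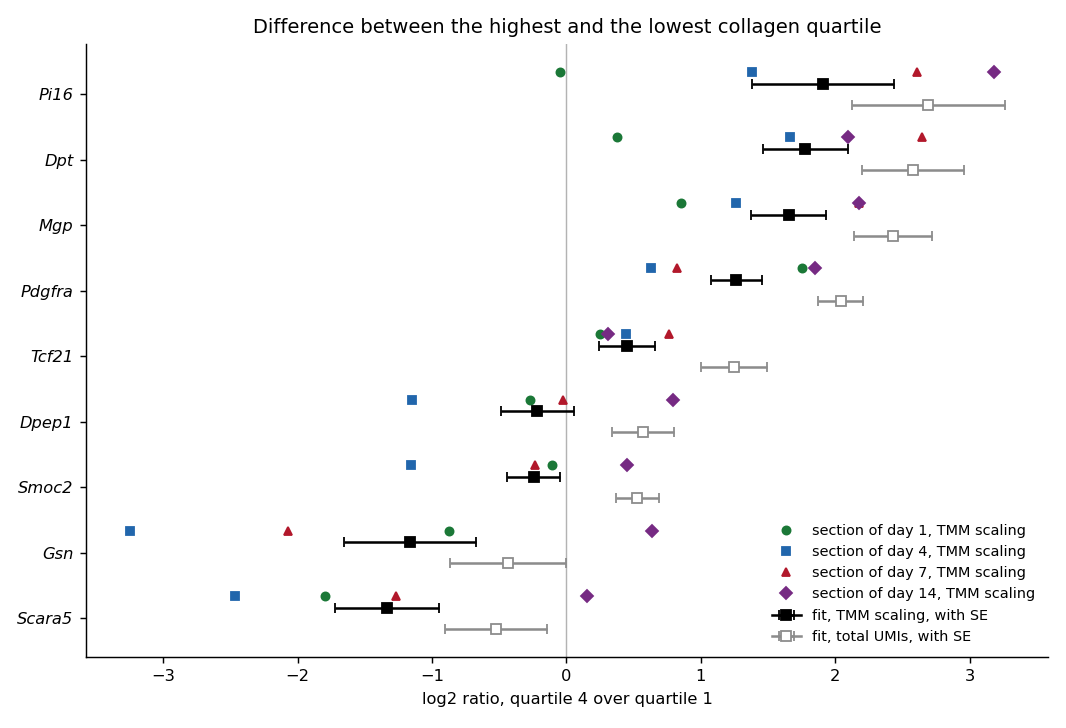
Log2 ratio of quartile 4 over quartile 1 (x axis) for each of the 9 genes (y axis). Black squares are the fit over 4 sections with TMM scaling, open squares the fit with total UMIs, both with their SE, and coloured symbols are single sections on the TMM scale. Pdgfra, Dpt, Mgp and Pi16 lie above 0 in both fits, and Smoc2 and Dpep1 lie below 0 with TMM (-0.24 and -0.22) and above 0 with total UMIs (0.53 and 0.57).

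Pdgfra encodes the alpha receptor for platelet-derived growth factors (PDGF), a surface tyrosine kinase by which heart fibroblasts are sorted. It lies on GRCm38 at chr5:75152292-75198215, plus strand. On day 1 its level was 19.8, 27.9, 37.5 and 94.2 CPM in quartiles 1 to 4, and on day 4 it was 21.9, 21.1, 35.8 and 72.6. On day 7 it was 22.3, 20.1, 44.4 and 72.9, and on day 14 it was 12.0, 15.8, 19.8 and 67.7. Every quartile 4 lay above every other quartile of every section, including on day 1, when collagen itself was still low. The log2 fold change of quartile 4 over quartile 1 was 1.26 (SE 0.19, n = 4 sections, edgeR adjusted p = 5.77e-05), and that over quartile 3 was 0.75 (SE 0.18, adjusted p = 0.00795). In quartile 4 day 14 was the lowest, at 67.7 (95% interval 56.0 to 81.0), and day 1 the highest, at 94.2 (82.8 to 107). The intervals of days 4, 7 and 14 overlapped. This order depended on the processing. Day 14 was at 90.5 as the mean over spots, 92.7 with no hemoglobin filter and 47.9 in spots of at least 1000 UMIs. Day 1 was at 90.4, 90.2 and 92.0 in the same settings.

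The genes of PDGF ligands and of the sister receptor of Pdgfra were chosen for mention after their values were seen. Between quartile 4 and quartile 1, Pdgfrb was higher by a log2 value of 1.27 (SE 0.18). Pdgfa was higher by 0.68 (SE 0.23) and Pdgfc by 2.20 (SE 0.57). Each had an adjusted p under 0.05. Pdgfb and Pdgfd, at 0.15 (SE 0.20) and -0.46 (SE 0.29), did not pass.

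Tcf21, on GRCm38 at chr10:22817281-22820174, minus strand, had the fewest UMIs of the 9 genes, with 123, 228, 138 and 192 UMIs in the whole sections of days 1, 4, 7 and 14. Its level in quartiles 1 to 4 was 7.61, 11.5, 9.63 and 12.7 CPM on day 1 and 8.80, 9.20, 25.3 and 25.6 on day 4. It was 9.18, 10.2, 17.3 and 28.7 on day 7, and 8.54, 11.2, 15.3 and 16.5 on day 14. The level was higher in quartile 4 than in quartile 1 in 4 of 4 sections, though the Poisson intervals of these quartiles overlapped on day 1 (4.82 to 11.4 against 8.77 to 17.9) and on day 14 (6.08 to 11.7 against 11.04 to 23.7). The log2 fold change was 0.45 (SE 0.21, adjusted p = 0.0778), which did not pass with TMM, and it was 1.25 with total UMIs (adjusted p = 0.000299), which did. No fall in the level of Tcf21 from the low to the high collagen quartile was seen in any section. With TMM the log2 ratios were 0.25, 0.44, 0.76 and 0.31 on days 1, 4, 7 and 14. Each had a counting interval that included 0. Per UMI of the activated fibroblast list, Tcf21 was lower in quartile 4 than in quartile 1. It was at 0.0109 against 0.0475 on day 1 and 0.00235 against 0.0391 on day 4. On days 7 and 14 it was at 0.00245 against 0.0364 and 0.00603 against 0.0617. The activated list itself rose along the ranking, at a median log2 fold change of 4.61. A lower ratio was therefore built in for any gene that rose less, and is not particular to Tcf21. Dpt, which was higher in quartile 4, also had a lower ratio there, 0.0309 against 0.221 on day 4. A change per fibroblast was not tested. Of its E-protein partners, Tcf3 and Tcf12, named after their values were seen, were higher by log2 values of 0.56 (SE 0.17) and 0.78 (SE 0.14), past the threshold. The E-protein gene Tcf4, also among the relatives and partners listed, is not reported here.

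Dpt encodes dermatopontin, a small matrix protein that binds decorin and helps collagen fibrils form, and lies at chr1:164796644-164824266, plus strand. In quartiles 1 to 4 its level was 44.0, 59.0, 65.1 and 80.3 CPM on day 1, then 49.7, 60.8, 203 and 338 on day 4. On day 7 it was 63.1, 93.6, 230.2 and 729, and on day 14 it was 43.2, 45.8, 66.3 and 286. By total UMIs the level was higher with every quartile in every section, though not every step was beyond counting error. On day 14 the intervals of quartiles 1 and 2 overlapped (37.3 to 49.6 and 39.9 to 52.3). As the mean over spots these quartiles were at 61.2 and 45.7, in the opposite order. Quartile 4 was 1.83-fold (95% interval 1.46 to 2.29) above quartile 1 on day 1 and 11.6-fold (9.77 to 13.8) above it on day 7, by total UMIs. On the TMM scale the same differences were smaller, at log2 values of 0.37 and 2.65. Quartile 4 of day 14, at 286 CPM, was at 463 as the mean over spots, 472 with no hemoglobin filter and 202 in spots of at least 1000 UMIs. With spots of other tissue left out, quartile 3 of day 7 was at 176. The fit gave a log2 fold change of 1.78 (SE 0.32, adjusted p = 0.00027).

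Mgp encodes matrix Gla protein, a vitamin K-dependent inhibitor of calcification made by fibroblasts and vessel walls, and lies at chr6:136872435-136875823, minus strand. Its levels in quartiles 1 to 4 were 420.0, 487, 637 and 1070.1 CPM on day 1 and 467, 618, 1840.2 and 2395 on day 4. They were 369, 535, 1286 and 3081 on day 7, and 287, 333, 498 and 2017 on day 14. The last of these was 3557 as the mean over spots and 1393 in spots of at least 1000 UMIs. With spots of other tissue left out, quartile 3 of day 7 was at 860. Mgp was the only one of the 9 genes that was already higher in quartile 3 than in quartile 1, by a log2 value of 1.00 (SE 0.27, adjusted p = 0.0384), where 6.59% of all tested genes were higher and 1.47% lower. The call was lost without the day 4 and without the day 7 section, when Mgp and the other 8 genes all missed the threshold. It was also lost with other tissue spots left out, with spots thinned to 1300 UMIs, with Col1a1 alone as the ranking and with no section block. Quartile 4 was higher than quartile 1 by 1.65 (SE 0.28, adjusted p = 0.000145).

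Pi16 encodes a peptidase inhibitor of the CAP family and marks fibroblasts found around vessels in many organs. It lies at chr17:29317680-29330593, plus strand. On day 1 its level was nearly level across the quartiles, at 25.8, 26.4, 35.9 and 35.1 CPM. On day 4 it was 9.27, 17.4, 71.9 and 51.6. On day 7 it was 18.0, 30.7, 97.7 and 202, whereas the day 14 section had 9.64, 11.7, 15.9 and 136. That last value was 279 as the mean over spots, 219 with no hemoglobin filter and 85.7 in spots of at least 1000 UMIs. With spots of other tissue left out, quartile 3 of day 7 was at 72.5. The ratio of quartile 4 to quartile 1 was thus 1.36 (95% interval 0.996 to 1.87), 5.57 (3.87 to 8.17), 11.2 (8.19 to 15.8) and 14.1 (10.2 to 19.9) at days 1, 4, 7 and 14 by total UMIs. As log2 values on the TMM scale these were -0.05, 1.38, 2.61 and 3.18. The fit gave a log2 fold change of 1.91 (SE 0.53, adjusted p = 0.00762), and the call was lost without the day 7 section (1.66, adjusted p = 0.0529). Between quartiles 4 and 3 the log2 fold change was 0.51 (SE 0.49, adjusted p = 0.454), with 2 sections higher and 2 lower.

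**Figure D3:**
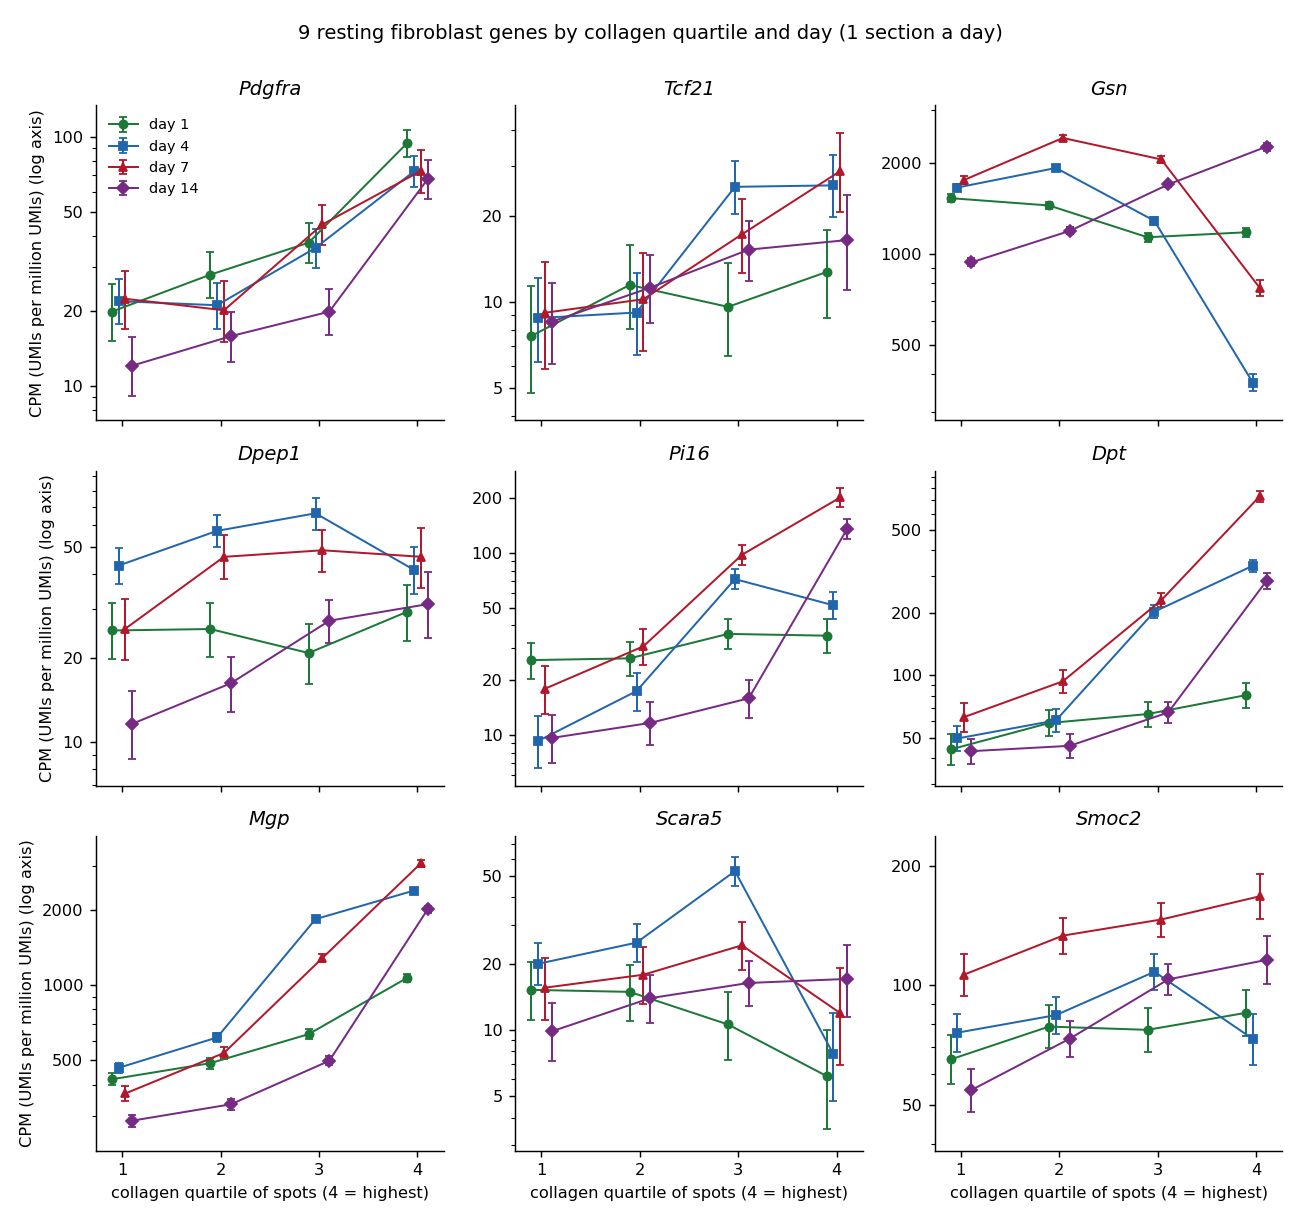
Level of each of the 9 genes in CPM (y axis, log scale) by collagen quartile (x axis, 4 highest), with 1 line for each section and exact Poisson 95% intervals. Pdgfra, Dpt and Mgp are highest in quartile 4 of every section, Scara5 on day 4 is at 52.7 in quartile 3 and 7.76 in quartile 4, and quartile 4 of Gsn is at 374 on day 4 and 2263 on day 14.

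Scara5 encodes a scavenger receptor that takes up ferritin, and lies at chr14:65666403-65764826, plus strand. In quartiles 1 to 4 its level was 15.2, 14.9, 10.6 and 6.18 CPM on day 1 and 19.97, 24.9, 52.7 and 7.76 on day 4. On day 7 it was 15.6, 17.8, 24.2 and 11.9, and on day 14 it was 9.86, 13.9, 16.4 and 17.1. On days 4 and 7 the level was highest in quartile 3 and lowest in quartile 4, and on day 1 it was lowest in quartile 4. As the mean over spots, however, day 7 was at 15.8, 18.2, 26.2 and 18.3, where quartile 4 was not the lowest. On day 14 quartiles 3 and 4 had overlapping intervals (12.9 to 20.5 and 11.5 to 24.3). The counts behind quartile 4 were small, 16, 20, 17 and 30 UMIs on days 1, 4, 7 and 14. Quartile 4 was lower than quartile 3 by a log2 value of -1.69 (SE 0.37, adjusted p = 0.0066) and lower than quartile 1 by -1.33 (SE 0.39, adjusted p = 0.00882) with TMM. With total UMIs the latter was -0.52 (adjusted p = 0.22) and did not pass, and with the general fibroblast list in place of collagen as the ranking it was -0.90 (adjusted p = 0.0747). Between quartiles 4 and 3, 15.8% of all tested genes were higher and 15.9% lower, and of the 9 genes Pdgfra was the 1 higher and Scara5 the 1 lower. Both calls were lost without the day 7 section, where 0 of all tested genes passed in edgeR, though 3645 had an unadjusted p under 0.05 (DESeq2 on the 4 sections called 1442 higher and 1719 lower).

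Deciles of spots in place of quartiles showed where along the ranking Scara5 was found. On day 4 it was at 28.5 CPM in decile 5, 68.7 in decile 6 and 53.3 in decile 7, and then at 17.6, 7.51 and 3.05 in deciles 8, 9 and 10, the last on 3 UMIs. The spots of deciles 6 and 7 were those in which collagen began to climb and cardiomyocyte markers to fall, from 69371 CPM in decile 5 to 60011 in decile 6, 44009 in decile 7 and 6569 in decile 10. On day 7 Scara5 was at 26.7 and 27.4 in the same deciles and at 2.04 in decile 10, on 1 UMI. On day 14 it was at 23.9 in decile 8, at 7.01 in decile 9, on 5 UMIs, and at 28.3 in decile 10, on 8 UMIs, so that the lowest and the highest decile of that section were neighbours with wide intervals (2.28 to 16.4 and 12.2 to 55.9).

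Gsn lies at chr2:35256380-35307892, plus strand. In quartiles 1 to 4 it stood at 1527, 1444, 1134 and 1177 CPM on day 1 and at 1656, 1922, 1285 and 374 on day 4. On day 7 it stood at 1756, 2417, 2052 and 771, and on day 14 at 936, 1190.0, 1695 and 2263. With spots of other tissue left out, quartiles 3 and 4 of day 7 were at 2718 and 1149. With no hemoglobin filter day 14 was at 967, 1275, 1873 and 1630, where quartile 4 was not the highest. The first 3 sections were lower in quartile 4 than in quartile 1, while the day 14 section went the other way, 2.42-fold higher by total UMIs (95% interval 2.32 to 2.53) and higher by a log2 value of 0.64 with TMM. The fit over the 4 gave -1.16 (SE 0.49, adjusted p = 0.0569), which did not pass, and without day 14 it gave -1.91 (adjusted p = 0.0045), which did. Gsn alone made up 68.2% to 73.6% of the UMIs of the 9 genes in quartile 1, so that sums over the 9 genes follow it there. In quartile 4 it made up 11.1% on day 4 and 15.1% on day 7, where Mgp made up 70.9% and 60.3%. In deciles, day 14 Gsn was highest in deciles 8 and 9, at 2349 and 2165, and was 999 in decile 10, where cardiomyocyte markers were at 11364 against 76067 in decile 8. The peak on day 7 was 2809 in decile 6, against 517 in decile 10. Among its relatives in the gelsolin family, named after their values were seen, Capg, made by macrophages, was higher in quartile 4 by 2.82 (SE 0.32), and Svil, strong in muscle, was lower by -0.98 (SE 0.22). Scin and Flii, also among the relatives listed, are not reported here.

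**Figure D4:**
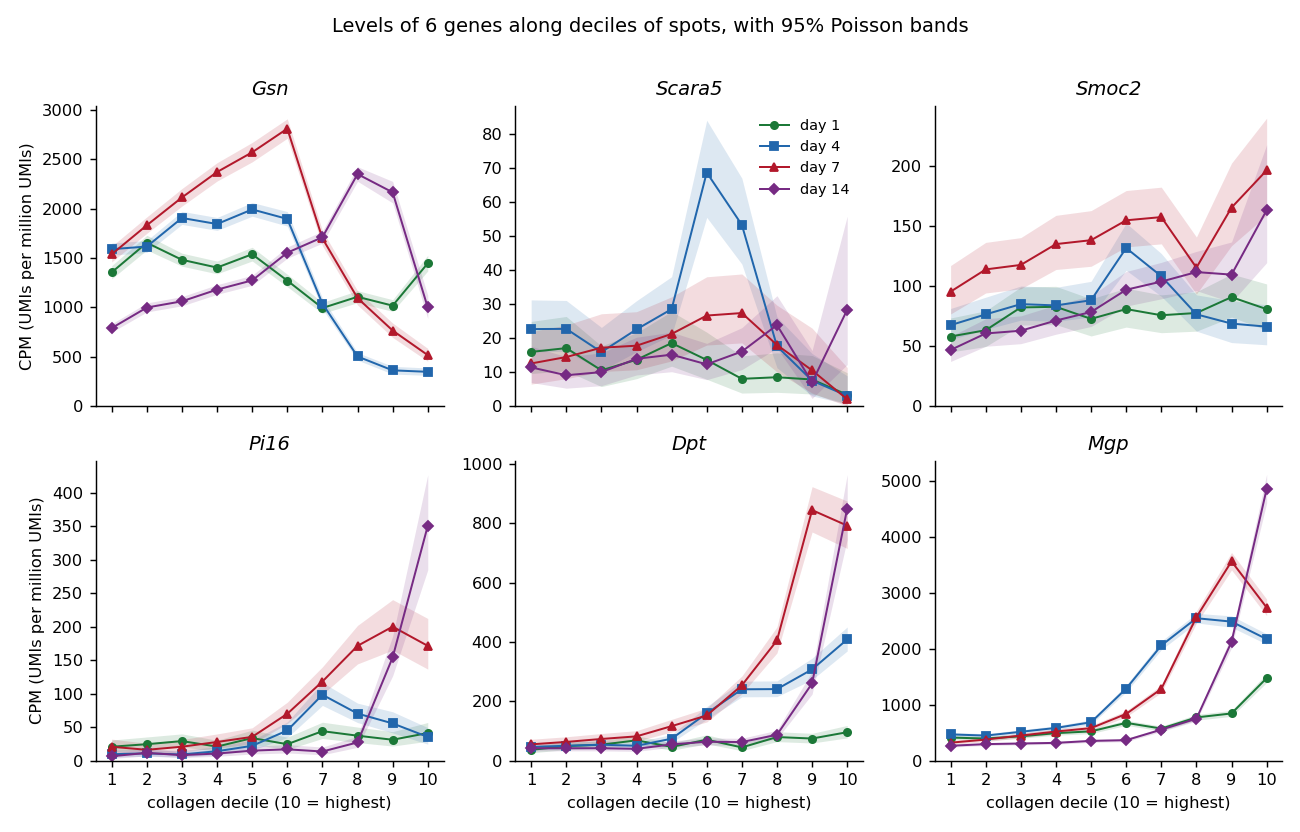
Level in CPM (y axis) of Gsn, Scara5, Smoc2, Pi16, Dpt and Mgp along deciles of spots ranked by collagen share (x axis, 10 highest), with 1 line for each section and bands for the exact Poisson 95% interval. Scara5 on day 4 is highest in decile 6 at 68.7, Gsn is at 348 and 517 in decile 10 of days 4 and 7, and Mgp is at 4851 in decile 10 of day 14.

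Dpep1 encodes a membrane dipeptidase that trims leukotriene D4, and lies at chr8:123186242-123201812, plus strand, where a protein-coding gene model, Gm20388, overlaps it on the same strand, so reads could have been left uncounted or split. Its level in quartiles 1 to 4 was 25.1, 25.4, 20.9 and 29.4 CPM on day 1 and 43.0, 57.4, 66.3 and 41.5 on day 4. It was 25.5, 46.3, 48.8 and 46.3 on day 7, and 11.6, 16.2, 27.3 and 31.3 on day 14. On days 1 and 4 the interval of the ratio of quartile 4 to quartile 1 included no difference, and on days 7 and 14 quartile 4 was 1.81-fold (95% interval 1.27 to 2.60) and 2.69-fold (1.81 to 4.00) above quartile 1, by total UMIs. On the TMM scale quartile 4 was lower on day 4, at a log2 value of -1.15 (-1.51 to -0.80), and higher on day 14, at 0.79 (0.22 to 1.36). The log2 fold change was -0.22 (SE 0.27, adjusted p = 0.517) with TMM and 0.57 (adjusted p = 0.0339) with total UMIs, so it had no direction that held across scalings.

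Smoc2, at chr17:14279506-14404790, plus strand, encodes a matricellular protein of the SPARC family. Its level in quartiles 1 to 4 was 65.2, 78.8, 77.3 and 85.3 CPM on day 1 and 76.1, 84.2, 108 and 73.4 on day 4. It was 107, 133, 147 and 168 on day 7, and 54.6, 73.5, 104 and 116 on day 14. The day 7 section was higher than the others in every quartile. With TMM the log2 ratio of quartile 4 to quartile 1 was -1.15 (-1.42 to -0.89) on day 4 and 0.45 (0.18 to 0.72) on day 14. The log2 fold change of quartile 4 over quartile 1 was -0.24 (SE 0.20, adjusted p = 0.31) with TMM and 0.53 (adjusted p = 0.00693) with total UMIs, and again had no direction that held across scalings.

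Across days, the resting genes were set against the activated fibroblast list, 17 genes such as Postn, Cthrc1 and Fn1, of which 15 were tested and 15 were higher in quartile 4 than in quartile 1 (median log2 fold change 4.61, with Cthrc1 at 5.71, SE 0.47, and Ltbp2 at 5.42, SE 0.65). In quartile 1 there were 13.4, 10.4, 9.46 and 9.91 UMIs of the 9 genes for each activated UMI on days 1, 4, 7 and 14. These quartile 1 values rest on Gsn and Mgp, without which they were 1.27, 1.02, 1.03 and 1.08. In quartile 4 there were 2.22, 0.310, 0.435 and 1.81 UMIs of the 9 genes. The ratio in quartile 4 was lowest on day 4 and highest on day 1, and that of day 14 lay between those of days 7 and 1. Quartile 4 did not hold like tissue on these days. Its lowest spot had a collagen share of 0.133%, 1.68%, 1.25% and 0.106% on days 1, 4, 7 and 14. Its cardiomyocyte mRNA was higher on days 1 and 14 than on days 4 and 7. The part of this in the ratios was not tested. Without Gsn and Mgp the quartile 4 ratios were 0.295 (95% interval 0.273 to 0.318), 0.0559 (0.0531 to 0.0588), 0.107 (0.102 to 0.112) and 0.245 (0.230 to 0.261), in the same order of days.

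Single genes took part in this to unequal degrees. For Pdgfra the quartile 4 ratio was 0.0808, 0.00665, 0.00620 and 0.0247 at days 1, 4, 7 and 14, and the values of days 4 and 7 lay within each other's intervals (0.00573 to 0.00768 and 0.00507 to 0.00752). For Dpt it was 0.0689, 0.0309, 0.0620 and 0.105, so that day 14 stood above day 1. For Scara5 it was 0.00530, 0.000711, 0.00101 and 0.00624. In quartile 1 the same ratios kept within a narrower band, 0.0870 to 0.124 for Pdgfra, 0.221 to 0.312 for Dpt and 0.0617 to 0.0950 for Scara5. Pi16 varied more in quartile 1, at 0.161, 0.0412, 0.0712 and 0.0696 on days 1, 4, 7 and 14. In quartile 4 it was 0.0302, 0.00473, 0.0172 and 0.0497, again with day 14 above day 1. The level of the activated list itself in quartile 4 was 1166, 10914, 11754 and 2735 CPM on days 1, 4, 7 and 14, while the 9 genes together were at 2591, 3379, 5110.4 and 4950.4. The closeness of days 7 and 14 in this sum, a ratio of day 14 to day 7 of 0.969 (95% interval 0.939 to 0.999), depended on Gsn and Mgp: the ratio was 1.45 without Mgp and 0.533 without both.

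**Figure D5:**
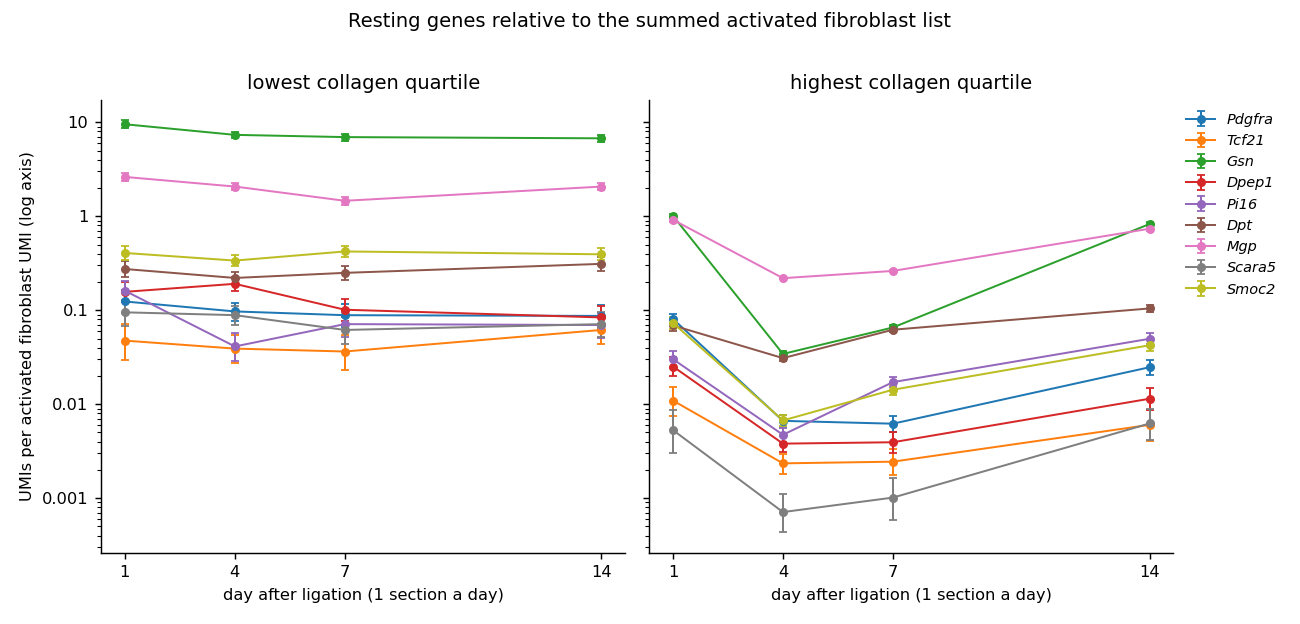
UMIs of each of the 9 genes per UMI of the activated fibroblast list (y axis, log scale) by day after ligation (x axis, 1 section a day), in the lowest (left) and the highest (right) collagen quartile, with exact conditional 95% intervals. In the highest quartile Pdgfra goes from 0.0808 on day 1 to 0.00665 on day 4 and is 0.0247 on day 14, whereas in the lowest quartile it stays between 0.0870 and 0.124.

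A wider list of 23 resting fibroblast genes, 22 of which could be tested, had 12 higher in quartile 4 than in quartile 1, 3 lower and 7 past the threshold in neither direction (median log2 fold change 0.71). Over all genes tested in this comparison 29.3% were higher and 25.8% lower. The largest rises were Mfap4, a microfibril-associated glycoprotein, at 4.67 (SE 0.55), and Serpinf1, which encodes pigment epithelium-derived factor, at 3.0 (SE 0.33). The 3 lower were Wif1, an inhibitor of Wnt ligands, at -2.28 (SE 0.43), Hsd11b1, which regenerates active glucocorticoid, at -0.88 (SE 0.28), and Ackr3, a scavenging receptor for Cxcl12, at -0.86 (SE 0.26). All 16 of the general fibroblast genes were higher, with a median of 2.29, Col5a2 at 3.89 (SE 0.40) and Fstl1 at 3.50 (SE 0.39) leading. On the other side of the spot, 9 of 9 cardiomyocyte markers were lower (median -2.08), 7 of 7 macrophage markers were higher (1.97), and of 8 endothelial markers 4 were lower and 0 higher (-0.36). Of 6 pericyte markers 4 were lower and 1 higher, of 4 mesothelial markers 4 were higher, and of 5 smooth muscle markers 3 were higher and 1 lower. These cell types moved along the same ranking as the 9 genes, and their part in the levels was not tested.

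Among 26 relatives and partners of the 9 genes, 20 were tested, 12 of them higher, 1 lower and 7 neither. The largest rises were Glipr1, a CAP family relative of Pi16, at 3.93 (SE 0.39), and Scara3, a scavenger receptor of the class of Scara5, at 3.05 (SE 0.56). The 1 lower was Svil. The opposite courses of Scara3 and Scara5 were given by their own values only, and their difference was not tested. Of the 2 ferritin chains that Scara5 can bind, named after their values were seen, Ftl1 was higher by 2.00 (SE 0.23) and Fth1 stood at -0.35 (SE 0.24, adjusted p = 0.228).

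By likeness over the 16 libraries, among up to 4766 genes of at least 1000 UMIs, the genes nearest to Dpt were Timp2, Ltbp3 and Lum, each with a correlation of 0.99. Those nearest to Mgp were C1qc, Ccdc80 and Igf1 (each 0.99), and those nearest to Pi16 were Cd34, C1ra and Igfbp4 (0.96, 0.96 and 0.95). Pdgfra was nearest to Tnfrsf1a, H6pd and Il4ra (0.97, 0.96 and 0.96) and Tcf21 to Oaf, Serf2 and Ulk2 (0.95, 0.94 and 0.93). Gsn was nearest to Ntn1, Adprhl1 and Fuom (0.92, 0.89 and 0.89), Scara5 to Pcsk6, Lifr and Pik3ip1 (0.88, 0.86 and 0.84), Dpep1 to Slc43a3, Ptpn11 and Tmem140 (0.90, 0.85 and 0.85), and Smoc2 to Txnip, Nfib and Sparcl1 (0.87, 0.84 and 0.84). After each section's mean was taken out, the values of Dpep1 were lower, at 0.72, 0.71 and 0.71, and so were those of Smoc2, at 0.78, 0.66 and 0.77. Among the 9 genes themselves, Dpt and Mgp were the closest pair at 0.95, whereas Tcf21 and Gsn were the farthest apart at -0.46. Dpep1 and Smoc2 were at 0.61 with each other, and at 0.92 after each section's mean was taken out. The points share section, depth and the ranking on collagen, and the correlations are descriptions only.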

How the data were processed

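Visium counts of 4 sections were analysed. The authors made them with Space Ranger 1.3.0 on mm10 from images aligned by hand, per the submitters' processing notes and the methods, which also list Seurat 4.1.1. The deposited values are raw UMI counts, 1 row a gene and 1 column a spot, not normalized, for spots under tissue. The 1% limit on the UMI share of hemoglobin genes follows the study, with 10 such genes by name, and the removal of spots at the tissue edge was not repeated. Spots were ranked within each section on the collagen share, and UMIs were summed per section and quartile (16 libraries).

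edgeR 4.0.16 with limma 3.58.1 fitted these sums by robust quasi-likelihood with TMM scaling and section as a block (9 residual degrees of freedom), over 11618 genes of at least 100 UMIs without the 3 ranking collagens, with Benjamini-Hochberg adjustment. TMM factors were 1.16 to 1.65 for quartile 4 and 0.749 to 1.15 for the others. The SE is the log2 fold change over the square root of F. The fit was tested on simulated data. p-values rest on 1 section for each of 4 days. Their error term is the scatter of all 16 libraries around the section and quartile effects, moderated over genes. It is not the spread of the 4 differences alone. Sections counted as higher or lower are by total UMIs. Intervals are exact Poisson, or exact conditional for ratios, at 95%, and cover counting error only. Spot barcodes come from a fixed grid, so 1332 occur in all 4 sections. Correlations used log2(CPM + 1). Gene coordinates were read from GENCODE vM21 (GRCm38).

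The members and lists were chosen with earlier results of these data known. Named are all 9 members, up to 4 genes a list (the 2 largest rises and the 2 largest falls at an adjusted p under 0.05) and the 3 genes nearest each member, with exceptions marked as such. Alternatives were DESeq2 1.42.0, other scalings, filters, spots and rankings, no block, and each section left out, planned for quartile 4 against quartile 1 and added for the other comparisons after seeing the data.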

Additional observations from a re-analysis of the deposited data

Results flagged for a closer look

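Gsn and Scara5 went in opposite directions in different sections, a difference between days that was not tested with 1 mouse a day. For Gsn the log2 ratio of quartile 4 over quartile 1, on total UMIs, was -0.38, -2.15, -1.19 and 1.27 at days 1, 4, 7 and 14. On the TMM scale it was -0.87, -3.25, -2.07 and 0.64, with the same signs. The counting intervals of the day 14 section, 1.21 to 1.34 on total UMIs and 0.57 to 0.70 with TMM, lay above 0. With no hemoglobin filter the day 14 levels of Gsn were nearer, at 1630 CPM in quartile 4 and 967 in quartile 1. Quartile 4 of day 14 held more cardiomyocyte mRNA, 59689 CPM over 9 markers, than that of day 4 at 13378 or day 7 at 20444, and that of day 1 was at 51910.4. For Scara5 the ratio at the same days was -1.30, -1.36, -0.38 and 0.79 on total UMIs, and -1.80, -2.46, -1.27 and 0.15 with TMM. The day 14 interval of Scara5 was 0.07 to 1.49 on total UMIs and -0.56 to 0.85 with TMM, so that its opposite sign there is within counting error on the TMM scale. Smoc2 and Dpep1 also had opposite signs with TMM, though not with total UMIs beyond counting error: Smoc2 was at -1.15 on day 4 and 0.45 on day 14, and Dpep1 at -1.15 and 0.79, each with a counting interval clear of 0. The part of depth in these differences was not tested: quartile 4 of day 14 had a median of 2171 UMIs a spot, the lowest of the 16 libraries.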

How the results depend on the processing

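Pdgfra, Dpt and Mgp kept the call of quartile 4 over quartile 1 in every alternative run, and Pi16 in all but 1, with 1.30 to 2.51 when a section was left out (1.66, adjusted p = 0.0529, without day 7). Over the 9 genes and all alternatives of that comparison, 138 values kept their direction and side of the threshold, 11 passed newly, 4 no longer passed and 7 turned sign. Tcf21 passed at 1.25 with total UMIs, 0.91 with total UMIs less mitochondrial mRNAs and ranking collagens, 0.54 in spots of at least 1000 UMIs, 0.74 ranked on general fibroblast genes and 0.55 without other tissue. Scara5 missed the threshold with these 2 scalings (-0.52 and -0.87) and that ranking (-0.90), and was not tested at a minimum of 1000 UMIs a gene. Gsn passed with DESeq2 (-1.20), no hemoglobin filter (-1.39), spots thinned to 1300 UMIs (-1.23), ranking on Col1a1 (-1.41) and the highest decile (-1.84), and ranged from -1.91 to -0.64 with a section left out. Dpep1 turned sign with both scalings (0.57 and 0.23), the general fibroblast ranking (0.074) and without day 4, and ranged from -0.53 to 0.13 with a section left out. Smoc2 turned sign with both scalings (0.53 and 0.20) and without day 4, and ranged from -0.49 to 0.032.

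The share of all genes called also changed with the setting, so the counts below are not read as changes in the 9 genes alone. For quartile 4 against quartile 1, 7 of the 9 genes were higher with total UMIs, where 7796 of 11618 genes were higher. The number lower was 2 with DESeq2, no hemoglobin filter, thinned spots, Col1a1 ranking and the highest decile, 0 with both scalings, the 1000 UMI minimum and the general fibroblast ranking, and 1 to 2 with a section left out. In the same order, the settings with 2 had 2918, 3171, 1657, 2842 and 3154 of all genes lower. Those with 0 had 1057, 1685, 1643 and 3151, and those with a section left out 2255 to 3127. For quartile 3 against quartile 1 the number higher was 2 with DESeq2, 6 and 4 with the 2 scalings, 4 in a fit of these quartiles alone and with the general fibroblast ranking, 3 with no hemoglobin filter, 0 with no block, thinned spots, Col1a1 ranking and other tissue left out (unadjusted, edgeR gave 2 to 5 of 9), and 0 to 3 with a section left out. In the same order, 668, 2215, 1535, 1229, 1107 and 949 of all genes were higher. The settings with 0 had 0, 18, 14 and 325, and those with a section left out 0 to 864. For quartile 4 against quartile 3 the number higher was 3 with both scalings, the 1000 UMI minimum and other tissue left out, 2 with the general fibroblast ranking and the highest decile, 0 with no block and 0 to 2 with a section left out. In the same order, 5649, 3653, 1164, 1807, 1883, 2149 and 0 of all genes were higher, and 0 to 2000 with a section left out. The number lower was 0 with the 1000 UMI minimum and no block, 2 with no hemoglobin filter and the general fibroblast ranking, 3 with the highest decile, and 0 to 1 with a section left out. In the same order, 1215, 0, 2149, 2027 and 2447 of all genes were lower, and 0 to 2256 with a section left out. Between these quartiles Tcf21 turned sign with both scalings (0.29 and 0.067) and Pi16 ranged from -0.24 without day 14 to 1.06. Gsn in quartile 3 against quartile 1 turned sign with total UMIs (0.017) and the general fibroblast ranking (0.16).

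Of all genes, quartile 4 against quartile 1 called 7796 higher and 1057 lower with total UMIs, 6025 and 1685 with the reduced total, 1722 and 1643 at the 1000 UMI minimum, and 1826 and 1657 with thinned spots, against 3399 and 3001. Quartile 3 against quartile 1 called 766 higher and 171 lower. The alternatives gave 2215 and 37 with total UMIs, 1535 and 64 with the reduced total, 414 and 71 at the 1000 UMI minimum, 1229 and 918 in these quartiles alone, 18 and 0 with thinned spots, 14 and 0 with Col1a1, and 325 and 32 without other tissue. The number lower was 381 with no hemoglobin filter, 58 in spots of at least 1000 UMIs and 357 with the general fibroblast ranking. With a section left out it was 0 to 289, and the number higher 0 to 864. Quartile 4 against quartile 3 called 1833 and 1848, and 5649 and 724, 3653 and 1133, 1164 and 1215, and 883 and 1035 with total UMIs, the reduced total, the 1000 UMI minimum and thinned spots, and 0 to 2000 higher and 0 to 2256 lower with a section left out. No block gave 0 and 0 in both these comparisons, with 1903 and 3842 genes at an unadjusted p under 0.05. Without day 7, 0 genes passed in either of them, with 1997 and 3645 unadjusted.

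Every comparison of quartiles is paired within sections by the section block, and its removal is given above. The summed level of the 9 genes in quartile 4 stayed within its counting interval in 12 of 20 alternatives. On day 14 it was 4950.4 CPM, 6541 without mitochondrial mRNAs and ranking collagens, 6469.8 as the mean over spots, 5589.9 with no hemoglobin filter and 4098 in spots of at least 1000 UMIs. Levels of single genes without mitochondrial mRNAs and ranking collagens in the total were 1.12 to 1.61 times those printed. The causes of these changes were not tested. The 16 to 30 UMIs of Scara5 in quartile 4 limit what can be said of its course.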
